A study of Mus musculus with 4 samples.

Results

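The genes of cholesterol synthesis and its regulation were followed between pseudopodia and cell bodies of migrating mouse fibroblasts. A gene was included when it belonged to a fixed set of 27 symbols, and each was read through every probe set that the platform annotation assigns to that symbol alone. These were 59 of 45101 probe sets, for 26 of the 27 genes, among 18193 genes read in this way. Acat2, a cytosolic acetyl-CoA thiolase, had no such probe set and was not analysed here. The members were 6 measured cytosolic enzymes of the early pathway, Ggps1 on a side branch, 11 membrane-bound enzymes of the late pathway, 5 genes that control the sterol-sensing transcription factors, and 3 sterol transport genes.

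Cells make cholesterol from acetyl-CoA. Soluble enzymes first build the isoprenoid farnesyl diphosphate, and enzymes held in the membrane of the endoplasmic reticulum then join it into squalene, close the sterol rings and trim them to cholesterol. The transcription factors encoded by Srebf1 and Srebf2 are made as membrane proteins of the endoplasmic reticulum, which Scap escorts to the Golgi for cleavage when sterol is low and Insig proteins hold back when sterol is high. RNAs for membrane and secreted proteins are in general translated on ribosomes bound to the endoplasmic reticulum, whereas those for soluble enzymes are translated on free ribosomes.

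Both groups were NIH/3T3 cells, an established fibroblast line, deprived of serum overnight and left for 2 h to spread on a fibronectin-coated porous membrane. Lysophosphatidic acid (LPA), a phospholipid that stimulates migration, was then placed beneath the membrane at 150 ng/ml for 1 h. The 2 pseudopodia arrays hold RNA from the protrusions on the underside, and the 2 cell body arrays hold RNA from what stayed on the upper side, which includes the nuclei. Cells of both groups received LPA, all were lightly fixed with formaldehyde, and no unstimulated group was analysed here. Beside the overnight deprivation, the sample labels list serum at 10% for both groups alike. The part of serum in the levels of these genes was not tested.

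The same-numbered arrays of both fractions were scanned on the same day, which differed between the 2 replicates. Each value is a MAS5 signal, and the arrays had been scaled to 1 common mean. A difference is therefore relative to the whole signal of a fraction and is not an amount per cell. The number of protrusions and the total RNA in each cannot be read from it. Fibroblast markers were bright (8 of 8 above the filter on dim probe sets, at 470.3 to 29400 in pseudopodia and 928.9 to 24452.3 in cell bodies), whereas none of 4 measured adipocyte markers passed the filter, at 1.4 to 24.2 in pseudopodia and 2.6 to 23.5 in cell bodies. Among other cell types, 3 of 5 epithelial markers passed the filter (highest Krt8, at 354.5 and 442.4 in pseudopodia against 372.9 and 365.1 in cell bodies), as did 1 of 3 blood and 1 of 4 hepatocyte markers, and none of these was called. Of 3 nuclear RNAs used as a check of the fractions, 1 was lower in pseudopodia: Neat1, a long noncoding RNA, stood at 687.2 and 927.2 in pseudopodia against 3384.9 and 3909.5 in cell bodies. Malat1 read 438.5 and 1545.6 in pseudopodia against 2030.0 and 2370.5 in cell bodies and did not pass (limma adjusted p = 0.154), and Meg3 overlapped between the fractions (-0.12 ± 0.38). A sign of RNA integrity differed too: the 3′ to 5′ signal ratio of the beta-actin control was 1.77 and 3.41 in pseudopodia, against 1.55 and 1.89 in cell bodies. That of Gapdh was 0.960 and 1.01 in pseudopodia, against 0.919 and 0.946 in cell bodies. The part of RNA integrity in the results below was not tested.

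Differences are log2 of pseudopodia over cell bodies, from log2(signal + pseudocount), ± SE from limma (n = 2 arrays in each group). The fit took in all 22519 probe sets at or above the median brightness, and a call is an adjusted p under 0.05 over all of them. Of the 59 member probe sets 53 were bright enough to be tested, and all 26 genes had at least 1. The 6 dim ones belonged to Fdps, Fdft1 (2 of them), Sc5d, Scap and Npc2. Each gene is described first by its brightest probe set, the one with the highest mean over all arrays. Signals of different probe sets are not comparable as levels, so genes are compared by their differences alone.

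Membrane-bound enzymes of the late pathway carried the calls. Msmo1, Sc5d and Sqle were lower in pseudopodia, and a dim probe set of Hmgcs1 was the fourth called. In all, 4 of 53 member probe sets were lower and 0 higher, against 3.32% lower and 1.08% higher among all probe sets tested. At an unadjusted p under 0.05 limma gave 19 lower and 2 higher, against 13.3% lower and 8.66% higher among all probe sets tested. By brightest probe set, 3 of 26 genes were lower, against 2.52% of 10962 genes, and none was higher, against 1.30%. The direction was wider than the calls: 21 of the 26 genes had a negative difference, where 48.8% of all genes did. In 16 genes both pseudopodia arrays lay below both cell body arrays, where 25.2% of all genes did so. In 3 genes both lay above, against 27.4% of all genes. The median gene of the set stood at -0.57, with -0.34 and -0.39 in the replicate pairs, and the median of all genes at 0.01. With so few arrays the smallest p of an exact permutation test is 0.333, so single genes were not tested in that way.

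The promoters of 3 of the 4 genes with a called probe set are printed (no window of Sqle, the fourth, was used here) as the best-known point where this pathway is controlled together, from 250 bases before to 50 after the start of transcription, read 5′ to 3′ on the coding strand (RefSeq, build GRCm38.p6). Capitals mark CCAAT, the box bound by NF-Y, a partner of the SREBP factors, and CACCCCAC, the core of the classical sterol regulatory element, each searched on both strands (CCAAT reads ATTGG on the opposite one). The 2 motifs do not overlap in these windows. A match is a run of letters and not a shown binding site, and a promoter says nothing about where an RNA goes in the cell.
Hmgcs1, chr13:119690101-119690400, plus strand: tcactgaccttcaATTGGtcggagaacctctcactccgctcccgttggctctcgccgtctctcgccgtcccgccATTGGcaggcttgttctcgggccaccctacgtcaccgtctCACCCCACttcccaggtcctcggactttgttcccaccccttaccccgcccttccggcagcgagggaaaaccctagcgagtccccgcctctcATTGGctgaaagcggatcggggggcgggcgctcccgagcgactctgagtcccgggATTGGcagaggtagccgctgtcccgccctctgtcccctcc
Msmo1, chr8:64733529-64733828, minus strand: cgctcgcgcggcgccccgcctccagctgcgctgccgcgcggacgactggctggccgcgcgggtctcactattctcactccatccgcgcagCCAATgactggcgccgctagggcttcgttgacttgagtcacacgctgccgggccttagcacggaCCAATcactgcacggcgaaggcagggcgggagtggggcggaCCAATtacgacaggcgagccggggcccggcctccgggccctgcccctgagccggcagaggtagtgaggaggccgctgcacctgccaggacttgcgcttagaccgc
Sc5d, chr9:42264251-42264550, minus strand: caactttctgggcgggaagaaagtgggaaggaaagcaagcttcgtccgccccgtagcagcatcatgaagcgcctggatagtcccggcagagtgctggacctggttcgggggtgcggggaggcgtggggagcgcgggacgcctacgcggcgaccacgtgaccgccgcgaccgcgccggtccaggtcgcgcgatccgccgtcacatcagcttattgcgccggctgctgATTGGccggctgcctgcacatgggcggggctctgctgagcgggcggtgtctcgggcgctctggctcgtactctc
CCAAT stood 4 times in the Hmgcs1 window, 3 times in that of Msmo1 and 1 time in that of Sc5d. It was found in 21 of 29 member windows, against 37.4% of all 32851 promoter windows. These came from 20 of 21 member genes with a window, and the same share over all genes was not analysed here. CACCCCAC was found in 1 member window, that of Hmgcs1, and in 2.87% of all.

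**Figure D1:**
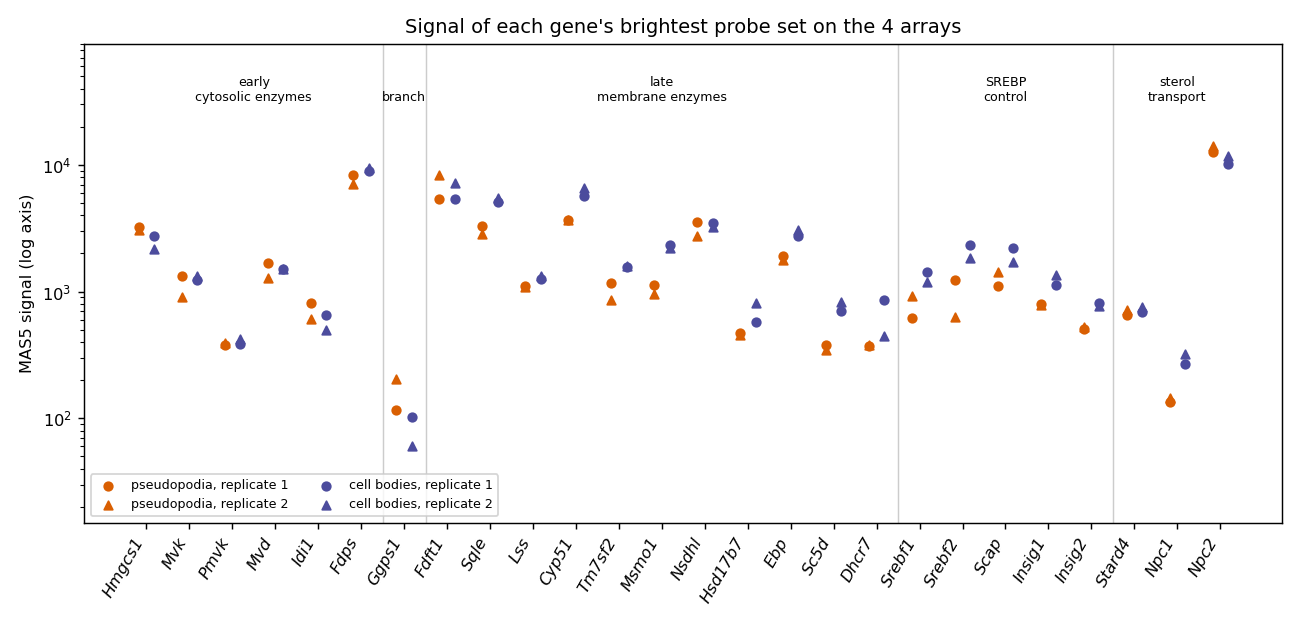
MAS5 signal (vertical log axis) of the brightest probe set of each of 26 genes on the 2 pseudopodia arrays (orange) and 2 cell body arrays (blue), circles for replicate 1 and triangles for replicate 2, grouped by role. Most late enzymes and all 5 SREBP control genes have both orange points below both blue ones (25.2% of all genes do), while the early enzymes mostly overlap.

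Among the late enzymes the clearest was Msmo1, a methylsterol monooxygenase that takes part in removal of methyl groups from the sterol ring. Its signal was 1136.2 and 950.2 in pseudopodia, against 2317.0 and 2204.3 in cell bodies. The 2 groups were well apart, and the pseudopodia level was 0.464 times that of cell bodies (-1.11 ± 0.19, limma adjusted p = 0.0297). A second, dim probe set gave -1.19 ± 0.43 and did not pass (adjusted p = 0.157).

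Sc5d encodes the desaturase that acts near the end of the pathway. It stood at 376.7 and 347.5 in pseudopodia, against 699.3 and 823.9 in cell bodies, without overlap (-1.04 ± 0.21, adjusted p = 0.0430). A dimmer probe set of Sc5d pointed the other way, at 212.0 and 186.2 in pseudopodia against 160.3 and 155.1 in cell bodies, and did not pass (0.31 ± 0.23, adjusted p = 0.493). The call on Sc5d therefore holds for 1 of its 2 tested probe sets.

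Sqle, squalene epoxidase, a rate-limiting enzyme of the sterol branch, has a single probe set. It read 3292.9 and 2860.9 in pseudopodia and 5073.6 and 5438.1 in cell bodies, 0.586 times the cell body level (-0.77 ± 0.17, adjusted p = 0.0474). Cyp51, which removes a methyl group from lanosterol, came next and narrowly missed the threshold, at 3698.2 and 3690.0 in pseudopodia against 5634.9 and 6517.8 in cell bodies (-0.71 ± 0.16, adjusted p = 0.0535). Its 3 probe sets gave close values of -0.71, -0.64 and -0.63, each without overlap between the groups.

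The remaining late enzymes did not pass. Ebp, a sterol isomerase, gave -0.65 ± 0.17 (adjusted p = 0.0792), and Tm7sf2, a sterol reductase, -0.64 ± 0.21 (adjusted p = 0.135). Dhcr7, the reductase of a final step, stood at 374.2 and 378.7 in pseudopodia against 859.8 and 446.1 in cell bodies, so its -0.70 ± 0.31 leaned on 1 cell body array. Hsd17b7, a ketosteroid reductase, gave -0.55 ± 0.24 on its brightest probe set, -0.69 and -0.80 on 2 dimmer ones and 0.75 on the dimmest. Lss, which closes the sterol rings, gave -0.25 ± 0.19 on its brightest probe set and -0.03 and 0.12 on dimmer ones. Nsdhl, a sterol dehydrogenase, gave -0.09 ± 0.19.

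Fdft1, squalene synthase, which joins 2 farnesyl units and opens the membrane-bound part, was the late enzyme with a positive value. Its brightest probe set read 5423.5 and 8272.8 in pseudopodia against 5345.9 and 7167.0 in cell bodies (0.11 ± 0.24), and another bright one 4662.1 and 3789.5 in pseudopodia against 5059.4 and 6618.7 in cell bodies (-0.46 ± 0.20, adjusted p = 0.225). Neither passed. Over the 11 late enzymes 10 values were negative, 9 had groups that did not overlap with pseudopodia lower, and 3 were called. Over all genes these shares were 48.8%, 25.2% and 2.52%. Their median was -0.65, with -0.53 and -0.82 in the replicate pairs.

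By their brightest probe sets, the cytosolic enzymes of the early pathway stood near the level of the median gene. None of 6 was called by its brightest probe set, 4 values were negative and 2 positive, and the range was -0.27 to 0.35. The median was -0.05, with 0.13 and -0.17 in the replicate pairs. Over their 13 tested probe sets 10 were negative, where 9894 of 19352 were over all genes, and the median was -0.22. Of these 13, 1 was lower, against 3.32% of all probe sets tested. Pmvk, phosphomevalonate kinase, read 379.6 and 391.7 in pseudopodia against 383.6 and 424.5 in cell bodies, with the groups overlapping (-0.06 ± 0.21). Mvd, the decarboxylase that follows it, gave -0.03 ± 0.20 and -0.18 ± 0.22 on its 2 probe sets. Mvk, mevalonate kinase, gave -0.22 ± 0.23 and -0.52 ± 0.27. Fdps, farnesyl diphosphate synthase, was bright at 8350.4 and 7067.2 in pseudopodia against 9016.1 and 9528.8 in cell bodies (-0.27 ± 0.15, adjusted p = 0.350).

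Idi1, the isopentenyl diphosphate isomerase, was the early enzyme with positive values on all of its probe sets. The brighter gave 0.31 ± 0.25. The other read 536.9 and 572.7 in pseudopodia against 286.8 and 330.4 in cell bodies, without overlap, and did not pass (0.82 ± 0.22, adjusted p = 0.0754). With the scan day as a block this probe set was called higher (limma adjusted p = 0.0104), the single member probe set to be so.

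Hmgcs1, the cytosolic HMG-CoA synthase, was split between its probe sets. The brightest read 3215.1 and 3040.3 in pseudopodia against 2746.4 and 2188.4 in cell bodies, with pseudopodia above (0.35 ± 0.19, adjusted p = 0.319). The next read 1521.0 and 840.8 in pseudopodia against 2045.3 and 1454.5 in cell bodies (-0.60 ± 0.31). The dimmest read 69.1 and 77.4 in pseudopodia against 204.9 and 176.0 in cell bodies, and was called lower (-1.21 ± 0.25, adjusted p = 0.0442). In all, 4 of its 5 probe sets had negative values, from -0.60 to -1.21, and where on the transcript each of them lies was not analysed here. On 3 of these the array of pseudopodia replicate 2, which had the highest beta-actin ratio, was the lowest of the 4, and the part of RNA integrity in this was not tested.

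Ggps1, which makes geranylgeranyl diphosphate for protein prenylation, was dim and gave mixed values. Its brightest probe set read 115.5 and 204.0 in pseudopodia against 102.7 and 60.4 in cell bodies (0.84 ± 0.35, adjusted p = 0.221). The other 3 gave 0.61, 0.16 and -0.66, and none passed.

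**Figure D2:**
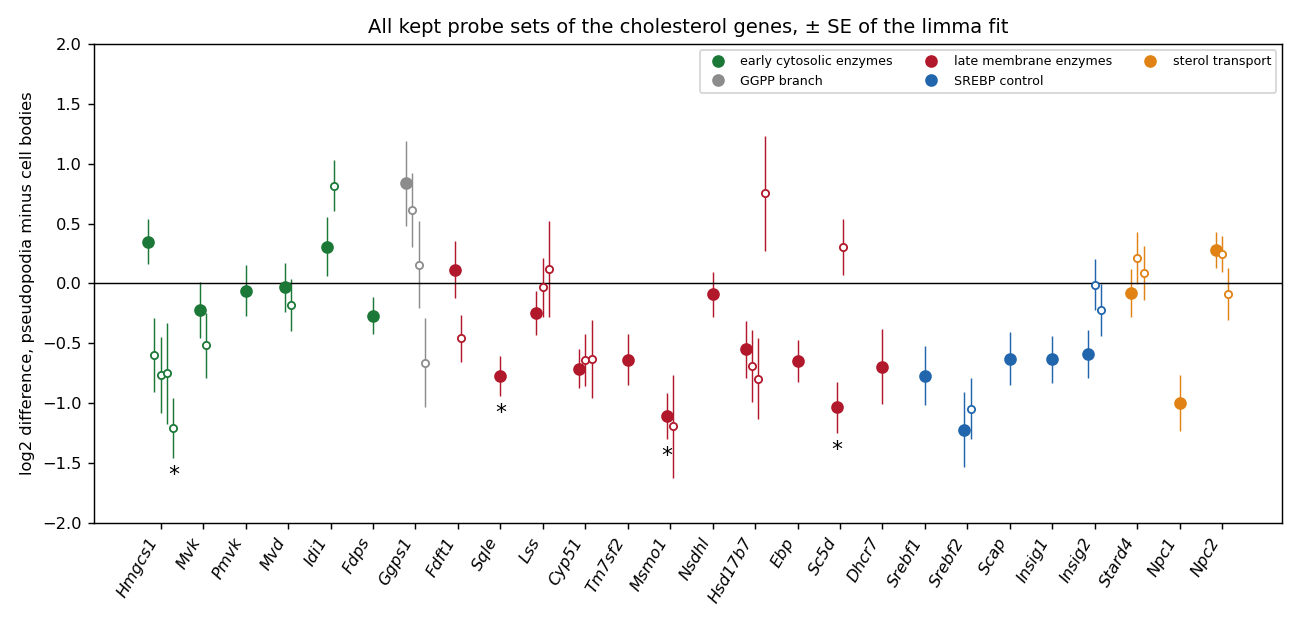
Log2 difference, pseudopodia minus cell bodies, with its SE, for the 53 tested probe sets of 26 genes; filled points are each gene's brightest probe set, open points its others in order of brightness, and asterisks mark adjusted p under 0.05. The late enzymes (red) and SREBP control genes (blue) lie mostly below 0, and the early enzymes' brightest probe sets (green) between -0.27 and 0.35. Probe sets on both sides of 0 belong to 8 genes: Hmgcs1, Ggps1, Fdft1, Lss, Hsd17b7, Sc5d, Stard4 and Npc2.

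Setting late beside early enzymes, the medians differed by -0.60 (late minus early), with -0.65 in each replicate pair. Genes of 1 pathway are not replicates, so this gap has no test. Reading each gene by the mean of all its tested probe sets narrowed it to -0.45, since the early median then stood at -0.19 and the late one at -0.64. Agreement between probe sets was limited: of 15 genes with at least 2 tested, 6 had negative values on all, 1 had positive values on all and 8 had both signs.

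The genes of SREBP control all had negative differences, where 48.8% of all genes did. None passed, where 2.52% of all genes were lower. Srebf2, the main activator of cholesterol genes, had the lowest value of the set, at 1228.9 and 627.9 in pseudopodia against 2324.9 and 1846.2 in cell bodies (-1.22 ± 0.32, adjusted p = 0.0719). Its second probe set gave -1.05 ± 0.26 (adjusted p = 0.0651), also without overlap. Srebf1, whose products also drive fatty acid synthesis, read 622.7 and 918.9 in pseudopodia against 1433.4 and 1182.7 in cell bodies (-0.77 ± 0.25, adjusted p = 0.121).

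Scap, the sterol-sensing escort, read 1099.4 and 1428.5 in pseudopodia against 2213.6 and 1713.2 in cell bodies (-0.63 ± 0.22, adjusted p = 0.152). Insig1, an anchor that acts when sterol is high, read 795.3 and 791.0 in pseudopodia against 1136.6 and 1355.3 in cell bodies (-0.64 ± 0.20, adjusted p = 0.116). Insig2, its paralogue, gave -0.59 ± 0.20 on its brightest probe set and -0.01 and -0.22 on the others. In all 5 genes the brightest probe set had no overlap between the groups, with pseudopodia lower, where 25.2% of all genes showed this. Their median was -0.64 (-0.91 and -0.53 in the replicate pairs). The replicates differed in size here: Srebf1 and Scap stood at -1.18 and -1.0 in replicate 1 but at -0.36 and -0.26 in replicate 2, and Srebf2 at -0.91 in replicate 1 and -1.53 in replicate 2.

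Of the transport genes, Npc1, the membrane protein that exports cholesterol from lysosomes, read 133.4 and 143.7 in pseudopodia against 267.4 and 320.7 in cell bodies, 0.50 times the cell body level (-1.0 ± 0.23). It just missed the threshold (adjusted p = 0.0581). Npc2, its soluble partner in the lysosome, pointed the other way, at 12536.0 and 13992.8 in pseudopodia against 10086.1 and 11803.0 in cell bodies, and did not pass (0.28 ± 0.15, adjusted p = 0.322). The dimmer tested probe sets of Npc2 gave 0.24 and -0.09. Stard4, a soluble sterol carrier of the cytosol, gave -0.08 ± 0.20 on its brightest probe set and 0.21 and 0.08 on the other two.

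**Figure D3:**
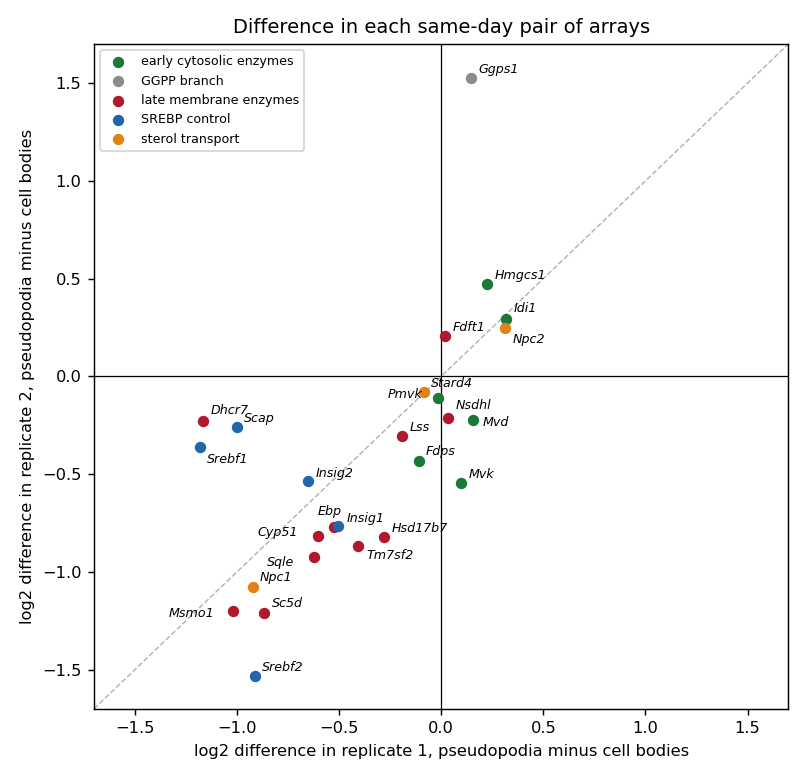
Each point is 1 gene by its brightest probe set, with the log2 difference between pseudopodia and cell bodies in the replicate 1 pair of arrays (horizontal) and in the replicate 2 pair (vertical); the dashed line marks equal values. Msmo1, Sc5d, Sqle, Cyp51 and Npc1 lie near the line, whereas Dhcr7, Srebf1 and Scap are further from 0 in replicate 1 and Ggps1 and Srebf2 in replicate 2.

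The count of calls depended on how the spread was estimated. With the scan day as a block, 13 genes were lower by brightest probe set, against 9.72% of all genes, and 18 member probe sets were lower and 1 higher, against 11.3% and 6.84% of all probe sets. The 13 added Cyp51, Tm7sf2, Ebp, Dhcr7, Npc1 and the 5 SREBP control genes to the 3 above. That fit has 1 residual degree of freedom against 16.8 from the shared prior. A rule of size needs no estimate of spread: at least 1.5-fold lower in each of the 4 pairs of arrays were 5 genes, namely Sqle, Cyp51, Msmo1, Sc5d and Npc1, against 5.38% of all genes, and none was higher, against 3.14%. Scaling the arrays on the spiked hybridization controls gave 9 member probe sets lower, against 6.51% of all, and 7 genes lower, against 4.94%, with 0.231% of all probe sets higher. A fit with 1 probe set for each gene gave 5 genes lower, against 3.44%.

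The calls also depended on which arrays were left to set the spread. With 1 array left out, the difference of Msmo1 ran from -1.24 to -0.98. That of Sc5d ran from -1.15 to -0.92 and that of Sqle from -0.87 to -0.67. The spread came from the pseudopodia arrays alone whenever 1 of the 2 cell body arrays was left out. Without either one, limma called 0 of the 22519 probe sets, with 12 of 53 member probe sets at an unadjusted p under 0.05 without replicate 1 (11.1% of all) and 14 without replicate 2 (13.1% of all). Without either pseudopodia array it called 8 member genes lower, against 9.83% of all genes without replicate 1 and 7.26% without replicate 2, and Ggps1 was called higher without replicate 1. With no trend in the variance model limma called 0 of the 22519, with 17 of the 53 at an unadjusted p under 0.05 (19.9% of all), and without the filter on dim probe sets it called 0 of the 59, with 20 at an unadjusted p under 0.05 (13.6% of all).

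**Figure D4:**
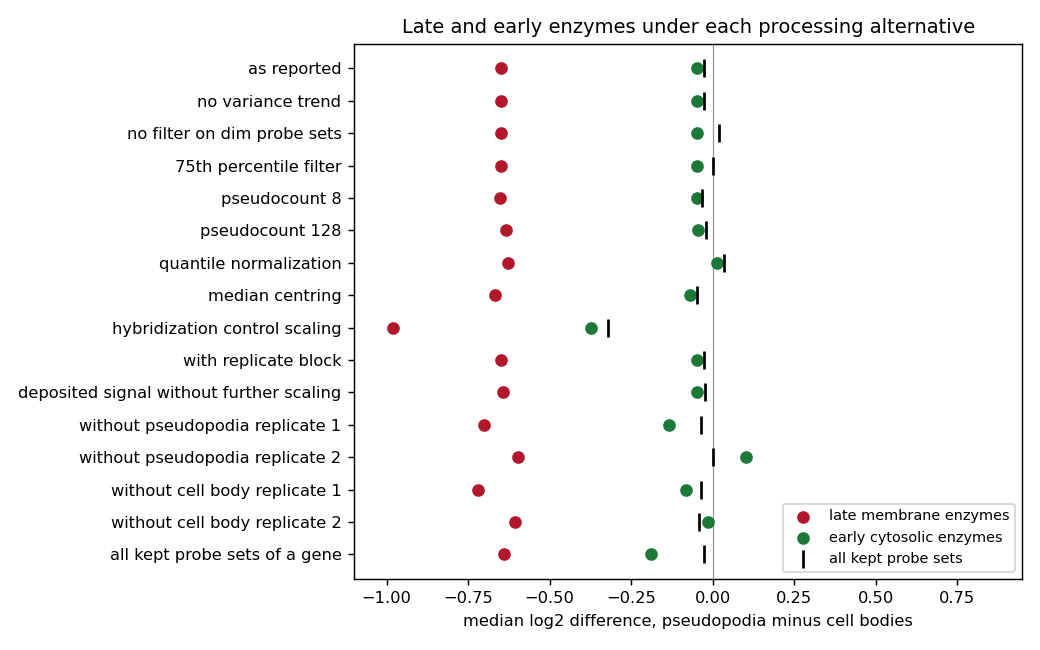
Median log2 difference, pseudopodia minus cell bodies, of 11 late enzymes (red), 6 early enzymes (green) and all kept probe sets (black ticks) as reported and under each processing alternative, the last line using the mean of all kept probe sets of a gene. The late median lies between -0.60 and -0.98 and the early one between -0.37 and 0.10.

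Other genes that make, sense, store or use these products were read from fixed lists. Of 14 further genes of cholesterol and SREBP biology with a tested probe set, 12 had negative values, where 48.8% of all genes did. Of these 14, 1 was lower, against 2.52% of all genes: Nceh1, a hydrolase of cholesterol esters in the endoplasmic reticulum membrane. It read 78.2 and 97.1 in pseudopodia against 210.1 and 238.4 in cell bodies (-1.22 ± 0.25, adjusted p = 0.0432), and its 2 dimmer probe sets gave -1.37 and -1.07. The median of these 14 was -0.49.

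Of 12 SREBP targets in fatty acid synthesis, 10 had negative values, where 48.8% of all genes did, with a median of -0.30. The 1 called by its brightest probe set was higher, against 1.30% of all genes: Scd1, a desaturase of the endoplasmic reticulum membrane. It read 10938.3 and 8428.9 in pseudopodia against 5310.6 and 4271.5 in cell bodies (1.01 ± 0.19, adjusted p = 0.0358), although a dimmer probe set gave 0.10. Over all 27 tested probe sets of this list 1 was higher and 2 were lower, against 1.08% and 3.32% of all probe sets tested. The 2 lower were dimmer ones of Scd2, another such desaturase, named here after its values were seen. They gave -2.38 ± 0.49 (adjusted p = 0.0437) and -1.27 ± 0.24 (adjusted p = 0.0345), and the brightest of Scd2 gave -0.33 ± 0.13 (adjusted p = 0.193). Of 12 genes that use the isoprenoid products, 2 were lower, both membrane enzymes that finish prenylated proteins: Icmt, a methyltransferase (-1.1 ± 0.22, adjusted p = 0.0401), and Rce1, a protease (-0.96 ± 0.20, adjusted p = 0.0423). That is 2 of 12 against 2.52% of all genes. Their list had 5 positive values and a median of -0.07, whereas over its 20 tested probe sets 8 were negative and the median was 0.22.

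For scale, 11 genes of the protein translocon in the same membrane had a median of -0.39, with 8 negative values, against 48.8% of all genes. By brightest probe set 2 were called lower, against 2.52% of all genes: Ssr1 (-1.12 ± 0.22, adjusted p = 0.0383) and Sec61a2 (-1.18 ± 0.26, adjusted p = 0.0486). Of the 31 tested probe sets of this list 6 were lower, against 3.32% of all probe sets tested. The 12 cytosolic glycolytic enzymes had a median of 0.02, with 7 positive values and none called by its brightest probe set, against 2.52% of all genes lower. Of their 24 tested probe sets 1 was lower, against 3.32% of all probe sets tested. It was a dimmer one of Pfkl, named after its value was seen (-1.49 ± 0.28, adjusted p = 0.0344). By brightest probe set the late enzymes thus stood at -0.65 beside -0.39 in the translocon list. The early ones stood at -0.05 beside 0.02 in glycolysis. Over all tested probe sets the late enzymes had a median of -0.64 beside -0.49 in the translocon list. The early ones then had -0.22 beside 0.10 in glycolysis. Whether these medians differ was not tested.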

How the data were processed

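RNA from 2 pseudopodia and 2 cell body samples was measured on 4 arrays, grouped and numbered by the titles. Nothing in the labels says that the samples came from separate cultures beyond being called independent, so the spread behind each p-value is that of these samples and may be technical. The deposited values are intensities, one MAS5 signal per probe set and array, per the submitters' processing notes. Version, detection calls and scaling target are not given in the sources used here. The trimmed mean was 250.0 on every array. Per the labels' protocols, cells were fixed in 0.3% formaldehyde for 10 min and crosslinks were reversed at 70 °C for 45 min. Precision is limited by the number of arrays.

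Each array was brought to a trimmed mean of 500 (2% off each end), 32 was added and log2 taken, so that changes of dim signals are understated. Probe sets whose mean reached the median of 45037 that are not controls were kept. The test was that of limma 3.58.1, under R 4.3.3 (lmFit, eBayes with a variance trend, two-sided, Benjamini-Hochberg over all kept probe sets), which was tested on simulated data. Names come from the platform annotation, and all 59 member probe sets matched RefSeq by gene ID. Named genes are all members, plus, from the other lists, genes whose brightest probe set was called. Marker genes, Scd2 and Pfkl were named outside this rule. The members and lists were chosen with earlier results of these data known.

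Replicate numbers pair the arrays through the scan day given in the file headers (replicate 2 minus replicate 1 correlated between fractions with r = 0.243 over probe sets, which are not independent), so a fit with this block was run. Other alternatives changed the variance model, filter, pseudocount, scaling and normalization, or left out 1 array.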

Additional observations from a re-analysis of the deposited data

How the results depend on the processing

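With 4 arrays the spread of single probe sets is poorly known. Counts are of limma calls, 747 lower and 243 higher over all probe sets as reported, with 4 member probe sets and 3 member genes lower. Without the variance trend 0 passed in either direction and 0 members (4487 probe sets at an unadjusted p under 0.05). Without the filter 137 were lower and 39 higher, and 0 members. With the replicate block, which follows the scan day, 2546 were lower and 1541 higher, with 18 member probe sets lower, 1 higher and 13 member genes lower. On hybridization controls 1465 were lower and 52 higher (3.43% of calls higher, against 24.5% as reported), with 9 member probe sets and 7 member genes lower. That scaling moved the median of all kept probe sets to -0.32, against -0.03 as reported, and with it the medians of members to -0.90, early enzymes to -0.37, late enzymes to -0.98 and regulators with transport genes to -0.96, while late minus early was -0.61. The late enzymes stood -0.66 from that median, against -0.62 as reported.

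Late minus early was -0.64 after quantile normalization, -0.59 with the larger pseudocount, -0.60 on the deposited signal and -0.45 over all probe sets of a gene. The member median was -0.53 after quantile normalization and with the larger pseudocount, and -0.37 over all probe sets of a gene. The last setting, with p adjusted over genes, left 1 member gene lower, Msmo1. A fit on the brightest probe set of each gene, added after seeing the data, called 5, with Npc1 (adjusted p = 0.0413) and Cyp51 (adjusted p = 0.0469) beside the 3 reported. Leaving out 1 array at a time gave 0 to 2652 probe sets lower and 0 to 1304 higher, 0 to 16 member probe sets lower and 0 to 2 higher, and 0 to 8 member genes lower and 0 to 1 higher. The zeros came without either cell body array (2502 and 2959 probe sets at an unadjusted p under 0.05). The lone array is then assumed to vary like the other fraction. The same fits gave a member median of -0.50 to -0.38, a late minus early gap of -0.70 to -0.57, and Srebf2 at -1.7 without pseudopodia replicate 1 and -0.75 without pseudopodia replicate 2.

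Values near 0 changed sign without a call: after quantile normalization Pmvk (0.061), Fdft1 (-0.11), Stard4 (0.0063) and Npc2 (-0.033), on hybridization controls Idi1 (-0.018), Fdft1 (-0.22) and Npc2 (-0.054). Leaving out 1 array at a time, Mvk ran from -0.50 to 0.046, Pmvk from -0.13 to 0.0072, Mvd from -0.23 to 0.16, Nsdhl from -0.27 to 0.093 and Fdft1 from -0.19 to 0.42. Of 389 single-gene values under all alternatives, 331 kept their sign and side of the threshold, 14 lost the call, 31 gained it and 13 changed sign. Only Msmo1, Sc5d and Sqle had a call to lose, each under 15 alternatives, so the losses were all theirs. Each of these genes lost its call without the variance trend and without the filter on dim probe sets. Sqle also lost its call with a pseudocount of 8 (limma adjusted p = 0.0529) and Sc5d after quantile normalization (limma adjusted p = 0.0668). The causes were not tested.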
